A study of Mus musculus with 4 samples.

Results

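Neu1 encodes the sialidase of the lysosome, and its transcript was set beside those of 6 other lysosomal enzymes, Ctsa, Glb1, Hexa, Gusb, Man2b1 and Fuca1. The 7 genes are the rows of the deposited table whose Ensembl identifiers carry these symbols in GENCODE M21, 7 of 34866 identifiers. Neu1 was chosen by its fold change between the groups of this study, measured on these libraries, so its values are a description with no test. The other members were taken for what their proteins do, with earlier results of these data known. The question is whether the difference in Neu1 extends to them.

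Neural stem and progenitor cells from the dorsal telencephalon of wild-type mouse embryos at E11.5 were transduced with lentivirus when plated and grown as floating neurospheres with bFGF for 5 days, after which their RNA was sequenced. The shControl cells received CS-EG-shControl at a multiplicity of infection of 30. The knockdown cells received 3 vectors together at 10 each, pCS-EG-shPhf21b for the first target and both pLV-EG-shZfp57 and pLV-EG-shZfp7 for the others, so that 3 hairpins and a second vector backbone set them apart from the controls. The genotype label of these cells reads Phf21, Sfp7 and Zfp57, and the treatment label names Phf21b, Zfp7 and Zfp57. Each group had 2 libraries, all under 1 batch label, and the labels do not say whether they came from separate cultures, so p-values measure only the spread between libraries, which may be technical.

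Sialidases remove terminal sialic acids from the sugar chains of glycoproteins and glycolipids, which is the first step in taking many of these chains apart. In the lysosome the Neu1 protein is active and stable only in a complex with Ctsa, the protective protein (cathepsin A), in which Glb1, the acid beta-galactosidase, also takes part. The remaining enzymes act on other sugars. Hexa is the alpha subunit of a beta-hexosaminidase that degrades ganglioside, Gusb is beta-glucuronidase, Man2b1 is lysosomal alpha-mannosidase and Fuca1 is alpha-fucosidase. Loss of Neu1 causes sialidosis and loss of Ctsa causes galactosialidosis, both with storage of sialylated material in neurons. Many genes of lysosomal enzymes are known targets of the MiT/TFE transcription factors, which bind the hexamer CACGTG and its extended form TCACGTGA.

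The stretches of promoter below are shown because Ctsa and Glb1, the proteins of the Neu1 complex, carry that hexamer near a start and the Neu1 window does not hold it. They come from RefSeq (GRCm38.p6), where all 7 genes were found, with 8 start sites in all since Ctsa has an additional start 901 bases downstream. Each is the plus strand, 5′ to 3′, which is also the strand of the gene. Capitals mark CACGTG or TCACGTGA and, in Glb1, also TGCCGC, the hexamer that Zfp57 is known to recognise when it is methylated. The Neu1 sequence is chr17:34931003-34931252, the 250 bases before its start, the Glb1 sequence is chr9:114400828-114401075, and the Ctsa sequence is chr2:164833758-164833786, which spans the downstream start.
Neu1: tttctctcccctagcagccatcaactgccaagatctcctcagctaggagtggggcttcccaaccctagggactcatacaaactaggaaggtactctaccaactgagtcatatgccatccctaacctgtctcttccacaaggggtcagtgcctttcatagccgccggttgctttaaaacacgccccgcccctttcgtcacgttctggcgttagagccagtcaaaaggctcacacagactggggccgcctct
Glb1: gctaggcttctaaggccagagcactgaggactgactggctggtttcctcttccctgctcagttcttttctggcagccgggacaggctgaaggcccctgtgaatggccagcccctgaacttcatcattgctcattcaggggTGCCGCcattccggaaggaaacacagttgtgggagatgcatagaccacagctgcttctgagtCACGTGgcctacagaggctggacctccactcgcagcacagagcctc
Ctsa: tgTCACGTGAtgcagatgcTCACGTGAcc

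The search covered 300 bases per start, 250 before and 50 after it, on both strands. CACGTG, which lies inside TCACGTGA, was found in 2 of the 8 windows, those of Glb1, 48 bases before the start, and of the downstream Ctsa start. The windows of Hexa, Gusb, Man2b1, Fuca1 and the upstream Ctsa start lacked it, as did that of Neu1. TCACGTGA was found in 1 window, that of Ctsa, 13 bases before the start and again from base 5 after it. TGCCGC was found in 2 windows, 110 bases before the start of Glb1 and, on the minus strand, at base 31 after the start of Neu1, outside the stretch printed. Of all 32851 windows in the table, 7.15% hold CACGTG, 0.974% hold TCACGTGA and 11.6% hold TGCCGC. These matches are letters in a window and were not tested for binding.

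The libraries held between 14694387 and 20779211 estimated counts. Transcripts of the targeted genes were lower on average in the knockdown, and none passed the threshold (an adjusted p of 0.05 in edgeR's quasi-likelihood test over all 14050 tested genes). In CPM, the count scaled to a common library total, Zfp57 measured 14.6 and 11.8 in shControl and 10.7 and 9.32 in the knockdown (75.6% of control, 95% interval 58.7% to 97.4%). Phf21b measured 7.25 and 7.36 against 5.49 and 6.45 CPM. Zfp7 measured 1.68 and 2.27 against 1.96 and 0.977 CPM, which overlap. Over all genes 1.37% were called, 0.541% higher and 0.826% lower in the knockdown.

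Neu1 (ENSMUSG00000007038.5, chromosome 17, 34931253 to 34935953 in GRCm38, plus strand, 5 exons once those of all transcripts are merged) was several times more abundant in both knockdown libraries. It measured 6.55 and 7.06 CPM in shControl and 34.2 and 26.5 CPM in the knockdown. The groups do not overlap, the controls lie close together and the knockdown libraries differ from each other by more than the controls do. The estimated counts behind these levels were 141 and 94 in shControl and 642 and 407 in the knockdown. The log2 fold change was 2.17 (SE 0.18), a 4.49-fold difference. Without 1 library at a time and under 7 other scalings, filters and tools it ranged from 1.97 to 2.33. None of the exonic bases of Neu1 overlap another gene, and 0.161% of its 31-base stretches occur in transcripts of another gene.

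**Figure D1:**
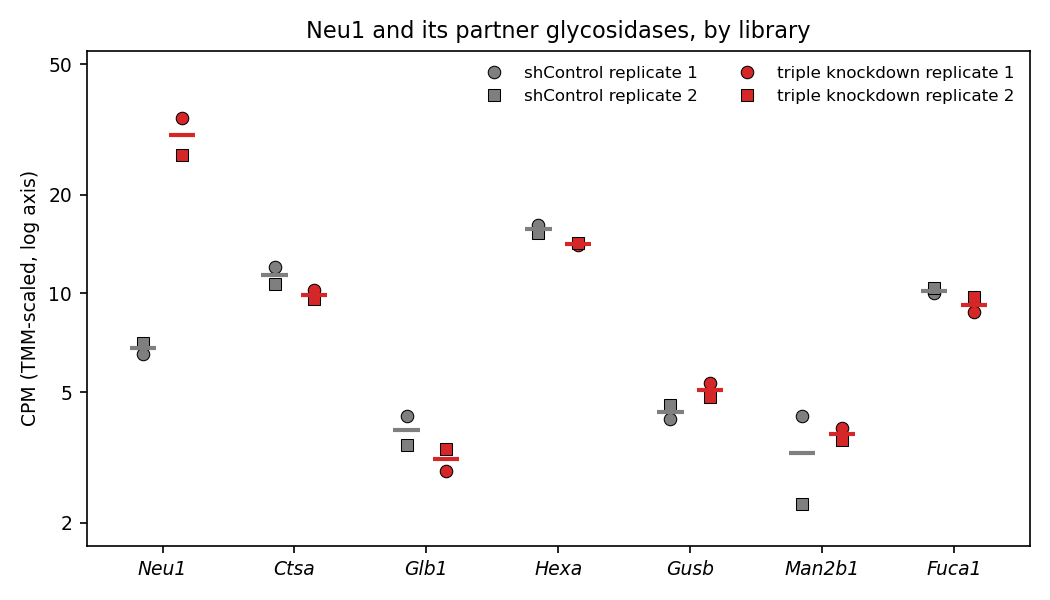
Level of each of the 7 genes in every library, in CPM on a log axis (grey, shControl; red, triple knockdown; circles, replicate 1; squares, replicate 2; bars, mean of 2 libraries). The Neu1 knockdown libraries sit at 34.2 and 26.5 CPM, far above its controls at 6.55 and 7.06, while the groups of the other 6 genes lie close together.

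The partners did not show a difference of this size, the highest log2 fold change among them being 0.23. Of the 6 partners 0 passed the threshold in edgeR's quasi-likelihood test in either direction, against 1.37% of all tested genes, 0 had an unadjusted p under 0.05, against 12.0% of all tested genes, and 0 were called by DESeq2 or limma-voom. Beside these shares of all tested genes, 0 calls among 6 do not set the partners apart. The partners' median log2 fold change was -0.15, beside -0.01 over all tested genes, with 2 values above 0 and 4 below. Both knockdown libraries lay below both controls for 4 partners and above both for 1, where 21.7% and 19.6% of all tested genes did so. Summed over the 6 partners the level was 50.8 and 46.7 CPM in shControl and 45.1 and 45.4 CPM in the knockdown. Neu1 made up 11.4% and 13.1% of the CPM of the 7 genes in shControl, and 43.1% and 36.9% in the knockdown.

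Ctsa (ENSMUSG00000017760.15, chromosome 2, 164832873 to 164841032), without which the sialidase is unstable, measured 12.1 and 10.7 CPM in shControl and 10.2 and 9.58 CPM in the knockdown. All the values lie within a narrow range and the knockdown libraries are the lower ones. The fitted knockdown level was 86.8% of that in shControl (95% interval 67.1% to 112%, edgeR adjusted p = 0.737), a log2 fold change of -0.20 with an SE of 0.19. Its value is uncertain to the extent that 17.4% of its exonic bases overlap Neurl2 or Pltp, since the sources used here do not say whether strand was kept. The ratio of Neu1 to Ctsa CPM was 0.543 and 0.663 in the control libraries and 3.35 and 2.77 in the knockdown libraries. The transcripts of the sialidase and of its protective protein therefore stood in a different ratio in the groups, with the sialidase the lower of the pair in the controls and the higher in the knockdown.

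Glb1 (ENSMUSG00000045594.10, chromosome 9, 114401076 to 114474898), the galactosidase of the complex, measured 4.23 and 3.46 CPM in shControl and 2.88 and 3.36 CPM in the knockdown. The groups nearly touch, at 3.46 and 3.36. The knockdown level was 80.5% of the shControl level (interval 54.7% to 118%, edgeR adjusted p = 0.729), a log2 fold change of -0.31 with an SE of 0.28, and 5.49% of its exonic bases overlap Tmppe. Hexa (ENSMUSG00000025232.8, chromosome 9, 59539540 to 59565109), which removes terminal hexosamines, measured 16.2 and 15.3 CPM against 14.1 and 14.3 CPM. This is a small and even difference, at 89.8% of the shControl level (interval 71.0% to 114%, edgeR adjusted p = 0.80), a log2 fold change of -0.15 with an SE of 0.17, and 12.8% of its exonic bases overlap Tmem202. Fuca1 (ENSMUSG00000028673.10, chromosome 4, 135920735 to 135940311), which removes fucose, measured 10.0 and 10.4 CPM against 8.76 and 9.75 CPM, which is 90.7% (interval 69.6% to 118%, edgeR adjusted p = 0.845), a log2 fold change of -0.14 with an SE of 0.19. For Hexa and Fuca1 the knockdown libraries were the lower ones, by less than 1 SE in log2.

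The remaining pair had fold changes above 0. Gusb (ENSMUSG00000025534.17, chromosome 5, 129989011 to 130003049, minus strand), long used as a reference gene and as a lysosomal marker enzyme, measured 4.13 and 4.58 CPM in shControl and 5.33 and 4.84 CPM in the knockdown. It was the single partner with both knockdown libraries above both controls, at 117% of the shControl level (interval 83.7% to 164%, edgeR adjusted p = 0.789), a log2 fold change of 0.23 with an SE of 0.24. Man2b1 (ENSMUSG00000005142.10, chromosome 8, 85083270 to 85098282), which trims mannose from N-glycans, measured 4.23 and 2.28 CPM against 3.90 and 3.57 CPM. Its control libraries lie on either side of the knockdown libraries, and the log2 fold change of 0.16 (SE 0.28, edgeR adjusted p = 0.885) became -0.16 when shControl replicate 2 was left out and 0.73 when shControl replicate 1 was. The highest upper bound of the 95% intervals among the 6 partners was 165% of control, that of Man2b1, so for each partner a difference as large as the 4.49-fold of Neu1 lies outside its interval, while any difference between its own bounds lies inside.

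**Figure D2:**
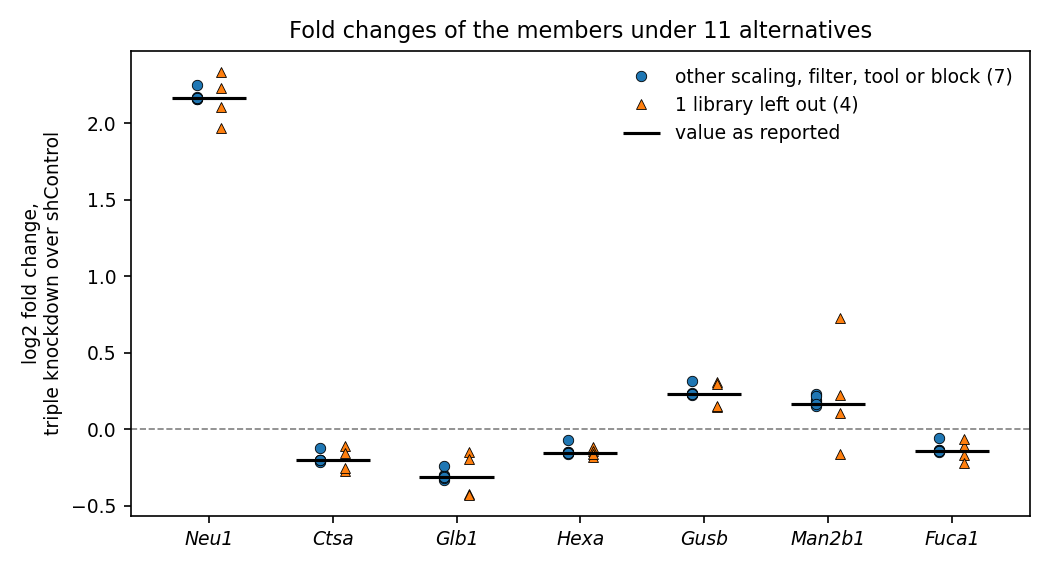
Log2 fold change of each gene as reported (black bar), under 7 other scalings, filters, tools or a replicate block (blue circles), and with 1 library left out (orange triangles). Neu1 stays between 1.97 and 2.33, and Man2b1 spreads most among the partners, from -0.16 to 0.73.

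Levels of different genes were compared as CPM per kilobase of merged exon length in GENCODE M21. Merged length counts the exons of every annotated transcript, from 1996 bases for Hexa to 8026 for Man2b1. The order therefore also depends on which isoforms are annotated. No source used here names the release behind the deposited counts, and the Ctsa identifier has another version in M21, so the order rests on lengths that may differ from those the authors used. In shControl the order was Hexa (7.89 ± 0.297), Fuca1 (3.11 ± 0.071), Ctsa (2.41 ± 0.21), Neu1 (1.82 ± 0.0971), Glb1 (1.28 ± 0.18), Gusb (0.958 ± 0.0698) and Man2b1 (0.406 ± 0.172; SD, n = 2 each), and the libraries of neighbours in this order do not overlap. In the knockdown Neu1 stood at 8.13 ± 1.46 CPM per kilobase, with libraries at 9.16 and 7.10. Hexa stood at 7.10 ± 0.0668, with libraries at 7.05 and 7.14, so the order of these genes does not hold beyond their spread. Gusb (1.12 ± 0.0756) and Glb1 (1.04 ± 0.113) also overlap there. By this measure Neu1 was the fourth of these transcripts in the control cells and level with the most abundant one in the knockdown cells.

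The other genes of sialic acid removal were scarce. Neu3, the sialidase of the plasma membrane, measured 0.933 and 1.06 CPM in shControl and 1.77 and 0.631 CPM in the knockdown, so the knockdown libraries lie on either side of the controls. Neu2, the cytosolic sialidase, had 0 counts in every library, and Neu4 had 1 count in shControl replicate 1 and 0 elsewhere. Slc17a5, the sialic acid exporter of the lysosomal membrane, measured 2.23 ± 1.07 against 2.77 ± 0.228 CPM (SD, n = 2 each; edgeR adjusted p = 0.833).

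Beyond the 7 members, 10 lists of lysosomal and sialic acid genes held 122 genes, of which 114 were tested. Of these 0 passed the threshold in either direction in edgeR's quasi-likelihood test, and 0 were called by DESeq2 or limma-voom, beside 1.37% of all tested genes in edgeR. Against so small a share, 0 calls among 114 do not set these lists apart. At an unadjusted p under 0.05 there were 13, 5 higher and 8 lower, where all genes had 12.0%. Leaving out shControl replicate 1 or triple knockdown replicate 2 gave 1 call each, leaving out shControl replicate 2 gave 3 calls, and every one of these calls was lower. The median log2 fold change of the 114 was -0.08 and the values ran from -1.04 to 0.63, so none reached the 2.17 of Neu1. Both knockdown libraries lay above both controls for 22 of them and below for 28, where 19.6% and 21.7% of all tested genes did.

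Among hydrolases, 15 other lysosomal glycosidases had a median log2 fold change of -0.11, which became 0.0488 without shControl replicate 1 and -0.19 without shControl replicate 2. Aga, which cleaves the link between sugar and asparagine, measured 10.6 ± 0.592 against 13.1 ± 0.134 CPM (SD, n = 2 each, here and below). The 8 sulfatases and partners had a median of -0.20, with Ids, iduronate sulfatase, at 19.2 ± 0.972 against 14.9 ± 1.80 CPM. The 14 proteases had a median of 0.20, the highest of the lists with more than 1 tested gene and 0.0759 without shControl replicate 2, and the abundant cathepsins Ctsl and Ctsb measured 112 ± 12.3 against 134 ± 5.63 CPM and 58.5 ± 9.74 against 69.7 ± 0.936 CPM. The 11 lipid hydrolases and activators had a median of -0.09, with the cholesterol carrier Npc2 at 159 ± 14.5 against 138 ± 5.09 CPM and Psap, the precursor of the saposins, at 62.1 ± 6.29 against 58.6 ± 4.31 CPM.

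The membrane and acidification machinery stayed near 0 as lists. The 14 lysosomal membrane proteins had a median log2 fold change of -0.02, with 7 genes on each side of 0; Laptm4a measured 373 ± 29.6 against 433 ± 31.7 CPM and the tetraspanin Cd63 292 ± 1.23 against 267 ± 18.7 CPM. The 16 subunits of the proton pump, which acidifies the lysosome, had a median of -0.03 and a range of -0.24 to 0.21. Their summed level was 1584 and 1529 CPM in shControl and 1541 and 1546 CPM in the knockdown, an example being Atp6v1g1 at 387 ± 4.81 against 398 ± 4.83 CPM, and Atp6v1f at 189 ± 18.2 against 164 ± 8.55 CPM.

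The genes that deliver enzymes to the lysosome had a median of -0.04 over 9 tested genes. M6pr, a mannose 6-phosphate receptor, measured 21.1 ± 2.47 against 20.1 ± 0.0208 CPM, and Gnptg, a subunit of the enzyme that makes the mannose 6-phosphate tag, 32.1 ± 3.20 against 31.3 ± 6.02 CPM. The MiT/TFE factors and their regulators had a median of -0.15 over 9 tested genes, 2 above 0 and 7 below. Both knockdown libraries lay below both controls for 4 of them and above for 0, where 21.7% and 19.6% of all tested genes did. Of the regulators, the GTPases Rraga and Rragc measured 52.3 ± 10.4 against 55.7 ± 7.92 CPM and 14.5 ± 2.58 against 16.5 ± 0.297 CPM. These were the 2 genes above 0. The tested factors Tfe3 and Mitf measured 4.53 ± 0.249 against 3.65 ± 1.10 CPM and 1.34 ± 0.0822 against 0.951 ± 0.239 CPM. Tfeb, the best known of the factors, had only 9, 2, 5 and 5 counts in the libraries (shControl replicates 1 and 2, then knockdown replicates 1 and 2) and was not tested. The list of sialic acid synthesis and transfer, mostly the opposite branch of the metabolism, also holds Npl, which degrades free sialic acid. The median of this list was -0.20 over 18 genes, with 7 above 0, Npl among them, and 11 below. Without shControl replicate 1 it was -0.0409. Cmas, which activates sialic acid, measured 32.5 ± 2.66 against 25.8 ± 4.06 CPM (log2 fold change -0.34, edgeR adjusted p = 0.329), and Npl 23.2 ± 0.563 against 26.3 ± 0.511 CPM.

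**Figure D3:**
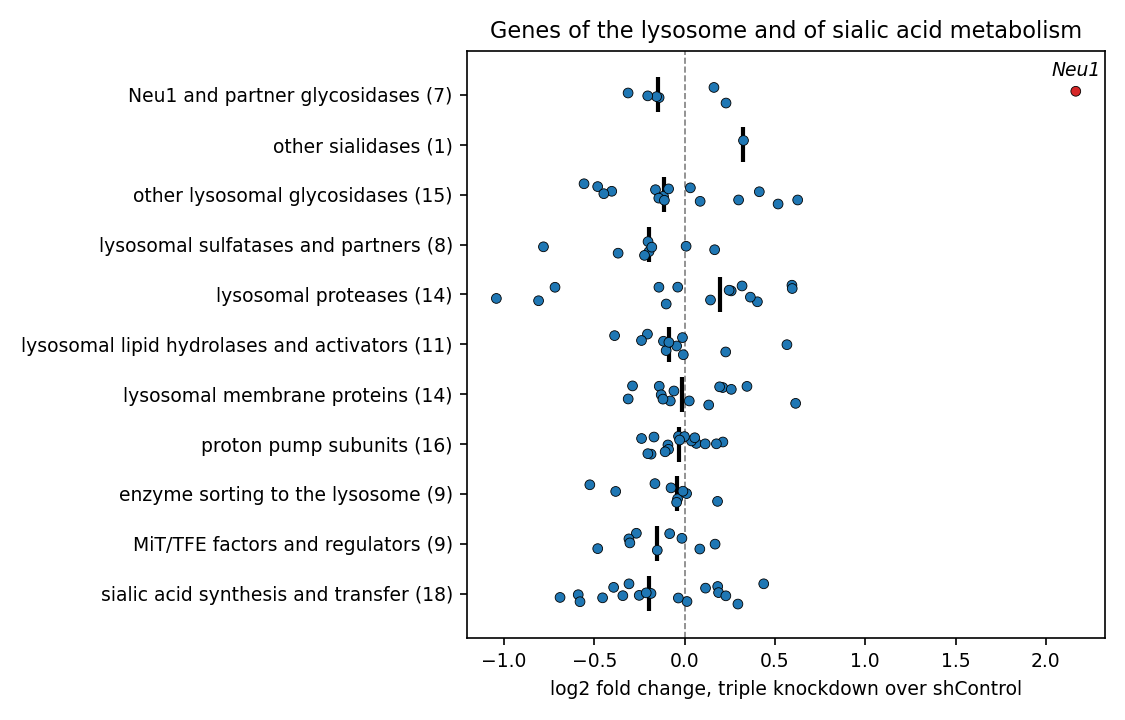
Log2 fold change of each tested gene of the 7 members and of 10 lists (1 point per gene, number tested in brackets, vertical position within a row arbitrary; black bars, list median without Neu1). Neu1, in red at 2.17, lies apart from all other points, which run from -1.04 to 0.63.

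Neu1 lies in the gene-dense class III part of the major histocompatibility complex. Of the 58 other genes annotated with a start within 250 kilobases of its own, 44 were in the table and 21 were tested. In edgeR's quasi-likelihood test 0 of the 21 passed the threshold (1.37% of all tested genes did), 2 had an unadjusted p under 0.05 (12.0% of all tested genes did), and DESeq2 and limma-voom called 0. The median log2 fold change was -0.09 and the range -0.95 to 0.32. The nearest tested genes on either side were Ehmt2, a histone H3 lysine methyltransferase whose start is 32.8 kilobases upstream, at 17.0 and 16.9 against 16.4 and 12.9 CPM, and the heat shock gene Hspa1b, 28.0 kilobases downstream, at 0.743 and 0.484 against 0.539 and 0.762 CPM. In the next positions the complement gene C2 had a log2 fold change of -0.12 (SE 0.36) and Lsm2, a subunit of a ring that binds the U-rich ends of RNA, one of 0.23 (SE 0.14). For Hspa1b 68.1% of its 31-base stretches are found in another gene, and for C2 44.4%, so their values are uncertain. The lowest value was that of Sapcd1 (edgeR adjusted p = 0.136, log2 fold change -0.95 with an SE of 0.32), of which 53.2% of the exonic bases overlap Vwa7. The closest protein-coding gene by start, the choline transporter gene Slc44a4, 16.8 kilobases upstream, had 1 and 0 counts in shControl and 3 and 1 in the knockdown and was not tested. Both knockdown libraries lay above both controls for 3 of the 21 and below for 5, where 19.6% and 21.7% of all tested genes did. With 1.37% of all tested genes called, 0 calls among 21 do not set this window apart. In size, no tested gene here matched the log2 fold change of 2.17 of Neu1, the highest being 0.32.

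**Figure D4:**
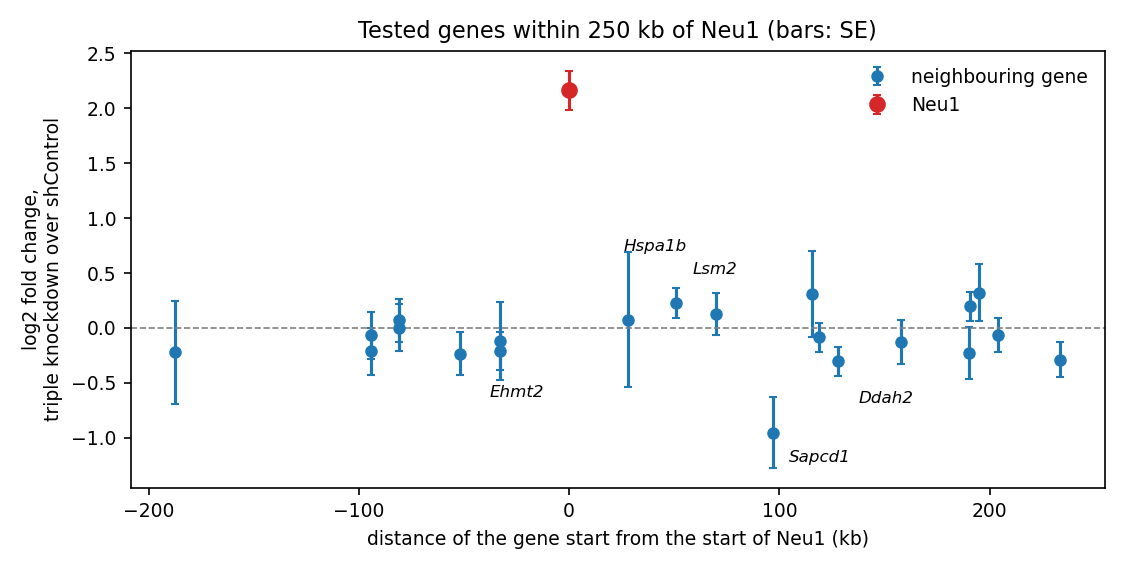
Log2 fold change (points) with its SE (bars) for the 21 tested genes that start within 250 kilobases of Neu1, against the distance of their starts in kilobases. Neu1 stands at 2.17, and the others lie between -0.95 (Sapcd1) and 0.32.

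The genes whose levels over the 4 libraries most resembled those of Neu1 are given as a description, since the Neu1 values that chose it also set the ranking. Likeness was the Euclidean distance between log2 CPM profiles, each centred on its own mean, among 12648 genes averaging 1 CPM or more. These profiles used rounded counts with a prior count of 2 added before the log. The prior shrinks the differences of genes with low counts, so their distances and ranks are not those of the CPM printed here. The nearest profiles were those of the homeobox gene Dbx2 (distance 0.285, chromosome 15), the interferon-induced Mx2 (0.292, chromosome 16), the ubiquitin-like Isg15 (0.298, chromosome 4), Gm28819 (0.308, chromosome Y) and Tmem170 (0.411, chromosome 8). Dbx2, Mx2, Isg15 and Gm28819 averaged 0.533, 0.374, 0.853 and 0.431 CPM in shControl and 2.52, 2.51, 5.02 and 2.01 CPM in the knockdown, so these 4 reached the mean of 1 CPM only through the group where they are high. Of the 5, only Tmem170 averaged over 1 CPM in shControl too, at 5.33 and 6.39 CPM in shControl and 34.0 and 32.0 CPM in the knockdown. The partners ranked far behind, from 2093 (Gusb, distance 1.92) to 10562 (Glb1, distance 2.46). With 4 libraries in 2 groups, any gene with a similar fold change has a similar profile.

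Lysosomal genes are abundant in macrophages, and in bulk samples fewer cells of a type and less RNA per cell cannot be told apart. Of 14 markers of microglia and other myeloid cells 10 were tested and 0 passed the threshold in edgeR (1.37% of all tested genes did). At an unadjusted p under 0.05 in edgeR there were 2, 1 higher and 1 lower, against 12.0% of all tested genes, and DESeq2 and limma-voom called 0. Ptprc was the higher one, at 5.36 and 10.2 CPM in shControl and 12.6 and 10.5 CPM in the knockdown. Lyz2 was the lower one, at 16.5 and 14.2 against 12.7 and 9.71 CPM. The summed level of the 14 markers was 41.5 and 44.3 CPM in shControl and 45.1 and 39.0 CPM in the knockdown, which overlap and do not show that single genes went both ways. The defining receptor gene Csf1r had 0 and 0 counts in shControl and 1 and 2.57 in the knockdown. The 10 markers of neural progenitors were all tested and present, led by Fabp7, and 0 passed the threshold in edgeR, with 1 at an unadjusted p under 0.05 against the same 12.0% of all genes. Their log2 fold changes were above 0 for 3 and below 0 for 7, with a median of -0.21. Of 8 neuronal markers 2 fell, Neurod6 and Tubb3 (log2 fold changes -1.12 and -0.72, edgeR adjusted p = 7.93e-07 and 0.000445), where 0.826% of all tested genes fell. The other 6 did not pass, 1 of them above 0 and 5 below, and the list's summed level was 708 and 650 CPM against 534 and 541 CPM. At an unadjusted p under 0.05 in edgeR there were 4 of the 8, all lower, against 12.0% of all tested genes. Of 5 tested markers of red blood cells 1 rose, Hbb-y, by 0.63 on the log2 scale (edgeR adjusted p = 0.0399), where 0.541% of all tested genes rose. The other 4 did not pass, 3 above 0 and 1 below, with the 8 listed genes summing to 25.9 and 27.6 CPM against 40.4 and 37.7 CPM. Of the 5 tested, 3 had an unadjusted p under 0.05 in edgeR, all higher, against the same 12.0%. Neurod6 stayed past the threshold in 11 of 11 alternatives and Tubb3 in 8, not with library size alone or without either knockdown library. Hbb-y stayed past it in 6, and also failed with DESeq2 and with the replicate block. Summed levels of the 7 fibroblast and meningeal markers were 58.8 and 58.6 against 53.3 and 56.2 CPM, and those of the 6 endothelial markers were 5.01 and 6.12 against 5.87 and 5.36 CPM. The part of these marker differences in that of Neu1 was not tested.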

How the data were processed

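The table deposited by the authors holds unnormalized estimated counts for each gene. The submitters' processing notes name Salmon, GRCm38 and mm10; for the tool's version, the annotation and the gene-level summing nothing is stated in the sources used here. Of 34866 identifiers, 34582 matched GENCODE M21 without their version. The estimated counts, as deposited, were rounded, and R 4.3.3 with edgeR 4.0.16 ran the tests (TMM scaling, filterByExpr with a minimum count of 10, robust quasi-likelihood F test, two-sided, Benjamini-Hochberg adjustment over 14050 genes, threshold 0.05). Rounded counts served the tests, the profile distances and the correlation of same-numbered libraries. The CPM printed used the unrounded values and the TMM-scaled totals. SE is the log2 fold change divided by the square root of F, and 95% intervals use it with the total degrees of freedom of the fit. These were 82.5 for the genes with a printed interval and come mostly from variance information shared across genes, not from the 4 libraries alone. The script was tested on simulated counts with a common dispersion, in which only genes more abundant than Glb1, Gusb and Man2b1 were changed. That run does not measure how often a change in these partners would be found. Alternatives used DESeq2 1.42.0 and limma-voom (limma 3.58.1), other scalings and filters, a replicate block and leaving out each library, where the lone library of a group is assumed to vary like the other group. An exact permutation test of 2 against 2 cannot go below 0.33 and was not used.

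The members and lists were chosen with earlier results of these data known. Genes were named by rule: the members, the targeted genes, those past the threshold in a list (at most 4) or else the 2 most abundant, the 2 nearest tested neighbours on each side of Neu1, and the 5 most similar profiles. The values of 2 genes that the rule names are not reported here. Slc17a5, Neu2, Neu4, Tfeb, Tfe3, Mitf, Slc44a4, Sapcd1, Csf1r and the marker genes named were added outside that rule after their values were seen.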

Additional observations from a re-analysis of the deposited data

How the results depend on the processing

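Neu3, the only tested gene of its list, gave no list median with the filter of 1 CPM in 2 libraries. The counts of partners and of neighbours past the threshold were 0 in all 11 alternatives, and Neu1 kept its direction in all 11. The partners' median log2 fold change was -0.0658 with scaling by library size alone, which moved the median of all genes from -0.01 to 0.07, and ranged from -0.17 to -0.10 without 1 library. The 114 list genes had between 0 and 3 calls without 1 library: St8sia4 without shControl replicate 1, Ctso, Ctsf and Gga1 without shControl replicate 2, and Nanp without triple knockdown replicate 2, all lower. Over all genes 192 were called, 76 higher and 116 lower. DESeq2 gave 55 (23 and 32) and scaling by library size alone 105 (77 and 28). Without 1 library the total ranged from 44 to 614, the higher from 27 to 280 and the lower from 17 to 334; the cause was not tested. With a replicate block 172 genes, 0 partners and 0 list genes passed, and Neu1 had a log2 fold change of 2.16. The deviations of same-numbered libraries had a correlation of -0.03, so the numbers were not taken to pair them.

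Without 1 library at a time the list medians ranged from -0.19 to 0.0488 (glycosidases), -0.26 to -0.14 (sulfatases), 0.0759 to 0.27 (proteases), -0.16 to -0.00536 (lipid hydrolases), -0.0909 to 0.13 (membrane proteins), -0.0808 to 0.0302 (proton pump), -0.12 to 0.0436 (sorting), -0.24 to -0.0641 (MiT/TFE) and -0.24 to -0.0409 (sialic acid synthesis and transfer). With library size alone the medians of the membrane, pump and sorting lists became 0.0628, 0.0485 and 0.0378.

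Signs that turned all belonged to genes not past the threshold. With library size alone the log2 fold change of Gnptg became 0.0426 and that of M6pr 0.00403. Without 1 library at a time the log2 fold changes ranged from -0.16 to 0.73 for Man2b1, from -0.59 to 0.84 for Neu3, from -0.17 to 0.0207 for Psap, from -0.25 to 0.14 for Gnptg, from -0.17 to 0.0544 for M6pr, from -0.087 to 0.31 for Rraga, from -0.30 to 0.0633 for C2, from -0.20 to 0.52 for Hspa1b and from -0.98 to 0.0275 for Zfp7. Man2b1, with 30.3 to 91.2 estimated counts a library, had the widest interval of the partners.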

Other observations

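Among the lysosomal proteases the single genes went both ways, with 5 of 14 at an unadjusted p under 0.05 (12.0% of all tested genes) and 0 past the threshold in edgeR (1.37% of all tested genes), DESeq2 or limma-voom; the genes named here were chosen after their values were seen. The papain-family cathepsins Ctso, Ctsf and Ctsk measured 6.01 ± 0.634 against 3.44 ± 0.26 CPM, 5.24 ± 0.931 against 3.22 ± 0.126 CPM and 2.45 ± 0.278 against 1.19 ± 0.205 CPM in shControl and knockdown (SD, n = 2 each). The carboxypeptidase Prcp and Ctsc, which activates serine proteases of immune cells, measured 3.88 ± 0.288 against 5.79 ± 0.611 CPM and 10.6 ± 0.402 against 14.1 ± 1.32 CPM. The edgeR adjusted p-values were 0.0802 (Ctso), 0.168 (Ctsf), 0.199 (Ctsk), 0.265 (Prcp) and 0.33 (Ctsc).

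In sialic acid transfer, St8sia4, which builds polysialic acid on the neural cell adhesion molecule, measured 6.04 and 9.39 CPM in shControl and 4.47 and 4.97 CPM in the knockdown (edgeR adjusted p = 0.129, log2 fold change -0.69 with an SE of 0.23). Slc35a1, which carries activated sialic acid into the Golgi, measured 21.5 and 21.4 against 15.9 and 16.8 CPM (edgeR adjusted p = 0.273, log2 fold change -0.39 with an SE of 0.16). Both were chosen after their values were seen.

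The estimated counts of Neu1 were whole numbers in both shControl libraries (141 and 94) and not in the knockdown libraries (641.725 and 406.926). Of the 3729 different 31-base stretches in its GENCODE M21 transcripts, 6 occur in another gene, namely Ciapin1 or Ckm.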
